A study of Mus musculus with 22 samples.

Results

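The genes described here are Xbp1, Dnajb9, Dnajc3 and Trib3, 4 of the 19505 gene symbols with a probe set on the array, and all belong to the unfolded protein response. They were chosen by their levels in these same tumours. Which differences put them forward is not recorded; those of obese from control and of obese sulindac from obese tumours are the likely ones, by inference from an earlier account of these data. Each pair of regimens includes at least 1 group whose values may have been used, so all differences of the 4 genes between regimens are given as a description with no test. Each gene was read through 1 probe set, and none of the 4 shared its values with another probe set. The study measured gene expression on Clariom S microarrays in 22 colon tumours that the carcinogen azoxymethane had induced in male mice of the inbred strain FVB/N. Tumours came from 5 formerly obese mice, switched from the high-fat diet to a low-fat diet, from 6 obese mice given sulindac while on a high-fat diet (60% of kcal as fat), from 5 obese mice eating that high-fat diet with no drug, and from 6 control mice kept on a low-fat diet (10% of kcal as fat), also with no drug. Sulindac is a non-steroidal anti-inflammatory drug that blocks cyclooxygenases. The labels give no age, dose or length of treatment, no batch and no tumour-free colon, so every comparison is among tumours.

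The endoplasmic reticulum folds proteins that a cell secretes or places in its membranes. When unfolded proteins gather there, 3 sensors, IRE1 (gene Ern1, with Ern2 in mucosal epithelium), PERK (Eif2ak3) and ATF6, start the unfolded protein response. IRE1 splices Xbp1 mRNA so that it encodes an active transcription factor, which induces chaperones and degradation factors. PERK phosphorylates eIF2alpha, which slows translation and favours ATF4, and ATF4 with CHOP (Ddit3) induces amino acid and stress genes. In the gut the response is best known from cells that secrete heavily, such as goblet and Paneth cells, and from plasma cells.

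The 4 genes sit at different places in this circuit. Xbp1, on chromosome 11 from 5520641 to 5525993 in assembly GRCm38.p6, encodes the transcription factor itself. Its probe set is annotated to both the spliced and the unspliced transcript, so its level is the total of both and says nothing about splicing. Dnajb9 (chromosome 12, 44205897 to 44210068) encodes ERdj4, a co-chaperone of the chaperone BiP and a target of XBP1. Dnajc3 (chromosome 14, 118937932 to 118981702) encodes p58IPK, a co-chaperone that also inhibits PERK. Trib3 (chromosome 2, 152337425 to 152344060) encodes a Tribbles pseudokinase induced by ATF4 and CHOP.

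The promoters show which of the response's known DNA elements lie near the starts of these genes, and 3 of the windows are printed because they hold letters of such an element. Each window is 300 bases of RefSeq sequence of GRCm38.p6, 250 before the start to 50 after it, on the strand of the gene. Capitals in Dnajc3 mark the ER stress element, searched as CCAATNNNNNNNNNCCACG. Capitals in Trib3 mark the C/EBP-ATF composite element, searched as TGATGNAA and found on the strand opposite to the gene. Capitals in Dnajb9 mark CCACG and CCAAT, the separate ends of the ER stress element.
Dnajc3, chr14:118937682-118937981, plus strand: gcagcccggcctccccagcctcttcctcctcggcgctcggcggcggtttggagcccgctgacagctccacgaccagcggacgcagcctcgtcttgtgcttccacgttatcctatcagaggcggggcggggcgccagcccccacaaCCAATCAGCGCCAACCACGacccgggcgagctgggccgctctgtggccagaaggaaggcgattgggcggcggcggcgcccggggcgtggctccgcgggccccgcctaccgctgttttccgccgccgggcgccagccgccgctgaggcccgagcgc
Trib3, chr2:152344011-152344310, minus strand: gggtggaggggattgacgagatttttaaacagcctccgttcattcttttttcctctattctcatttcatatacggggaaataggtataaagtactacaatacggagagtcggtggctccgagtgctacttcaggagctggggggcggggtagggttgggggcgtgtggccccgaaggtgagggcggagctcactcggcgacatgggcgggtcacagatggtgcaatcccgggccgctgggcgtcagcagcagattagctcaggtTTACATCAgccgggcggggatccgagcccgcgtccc
Dnajb9, chr12:44210019-44210318, minus strand: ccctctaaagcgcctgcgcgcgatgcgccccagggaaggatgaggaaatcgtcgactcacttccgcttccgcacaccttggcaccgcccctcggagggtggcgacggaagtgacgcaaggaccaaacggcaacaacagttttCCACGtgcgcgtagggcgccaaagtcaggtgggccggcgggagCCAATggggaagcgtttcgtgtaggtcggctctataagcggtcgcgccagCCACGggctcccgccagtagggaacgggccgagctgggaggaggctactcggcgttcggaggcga
Both strands of 32851 RefSeq windows of this length, belonging to 27025 genes, were searched for 6 motifs. The full ER stress element was in 39 of them (0.119%), Dnajc3 included, where it begins at position -105 relative to the gene's start. The composite element was in 1304 windows (3.97%), and in Trib3 its letters begin at position 15 after the start. Dnajb9 holds CCACG at positions -108 and -15 and CCAAT at position -65, without the full element. CCACG alone was in 32.8% and CCAAT alone in 37.4% of all windows, and the element overlaps both by construction. The Xbp1 window (chr11:5520391-5520690, plus strand) held none of these letters. The shorter ER stress element II was in 0.0365% of windows and the UPR element core, TGACGTG, in 2.01%, and neither was in any of the 4. A match is a description of letters and not of binding.

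Xbp1 had its highest mean in obese tumours, where every tumour lay above every control tumour. Levels are the deposited values, read as log2 and compared between arrays as deposited. In tumours of formerly obese mice Xbp1 was at 14.90, 14.44, 14.21, 14.23 and 14.95. In obese sulindac tumours it spanned 13.77 to 14.66 with a median of 14.18. Obese tumours were at 14.84, 14.62, 14.99, 14.81 and 15.26, and control tumours spanned 13.86 to 14.53 with a median of 14.16. The formerly obese tumours fell into an upper pair near the obese values and 3 tumours within the control range, while the sulindac and control tumours covered nearly the same range.

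Xbp1 averaged 14.55 ± 0.36 in formerly obese, 14.23 ± 0.32 in obese sulindac, 14.90 ± 0.24 in obese and 14.21 ± 0.27 in control tumours (mean ± SD of 5, 6, 5 and 6 tumours). From highest to lowest the order was obese, formerly obese, obese sulindac and control, and neighbours in that order overlapped in their ranges. Obese minus control was 0.69 ± 0.18 log2 units (SE), a fold of 1.62, and obese sulindac minus obese was -0.68 ± 0.18, a fold of 0.625 with 5 of 6 sulindac tumours below every obese tumour. These 2 differences probably helped to choose the gene. Over all probe sets, 0.149% had every obese tumour above every control tumour. In bulk tumour RNA, more cells that express a gene and more RNA per cell cannot be told apart.

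Dnajb9 was lowest in tumours of sulindac-treated mice, all 6 of which lay below all 5 tumours of untreated obese mice. Formerly obese tumours were at 13.09, 12.43, 12.78, 11.62 and 12.29. Obese sulindac tumours spanned 11.13 to 12.04 with a median of 11.81. Obese tumours were at 12.35, 12.44, 12.80, 12.24 and 13.19, and control tumours spanned 11.56 to 12.74 with a median of 12.06. The formerly obese tumours ranged more widely than those of any other group, with the tumours of Mouse_134 high and Mouse_150 low.

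Dnajb9 averaged 12.44 ± 0.56 in formerly obese, 11.74 ± 0.32 in obese sulindac, 12.60 ± 0.39 in obese and 12.10 ± 0.42 in control tumours (mean ± SD of 5, 6, 5 and 6 tumours). The order was obese, formerly obese, control and obese sulindac, and neighbours overlapped. Obese minus control was 0.51 ± 0.25 log2 units, a fold of 1.42, with 2 of 5 obese tumours above every control tumour. Obese sulindac minus obese was -0.86 ± 0.25, a fold of 0.549. Over all probe sets, 0.329% had every sulindac tumour below every obese tumour, and nothing is read from either count because the choice of genes probably used these groups. Dnajb9 was the only one of the 4 whose sulindac mean lay below the control mean, at -0.36 ± 0.24 log2 units, or between -0.47 and -0.23 with 1 tumour left out.

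Dnajc3, in contrast to the others, had its highest mean in formerly obese tumours. There it was at 12.49, 12.59, 12.65, 12.56 and 12.77, the tightest set of values of any of the 4 genes in any group. Obese sulindac tumours spanned 11.73 to 12.60 with a median of 12.32. Obese tumours were at 12.18, 12.24, 12.57, 12.60 and 12.59, and control tumours spanned 12.00 to 12.53 with a median of 12.12. Of the control tumours, only that of Mouse_27, at 12.53, reached the formerly obese range, and the obese tumours split into a low pair and 3 tumours near the formerly obese values.

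Dnajc3 averaged 12.61 ± 0.11 in formerly obese, 12.28 ± 0.31 in obese sulindac, 12.44 ± 0.21 in obese and 12.17 ± 0.19 in control tumours (mean ± SD of 5, 6, 5 and 6 tumours). The order was formerly obese, obese, obese sulindac and control, with overlap between neighbours. Its differences in the contrasts that probably chose the genes were 0.27 ± 0.15 for obese minus control and -0.16 ± 0.15 log2 units for obese sulindac minus obese.

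Trib3 was highest in obese tumours, 4 of 5 of which lay above every control tumour. Formerly obese tumours were at 6.58, 6.46, 5.89, 6.19 and 5.84. Obese sulindac tumours spanned 5.60 to 6.51 with a median of 6.11. Obese tumours were at 7.06, 6.44, 6.16, 6.46 and 6.78, and control tumours spanned 5.55 to 6.28 with a median of 5.92. The tumours of obese Mouse_96 and Mouse_113 were the only ones of the 22 above 6.58.

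Trib3 averaged 6.19 ± 0.33 in formerly obese, 6.06 ± 0.33 in obese sulindac, 6.58 ± 0.35 in obese and 5.95 ± 0.27 in control tumours (mean ± SD of 5, 6, 5 and 6 tumours). The order was obese, formerly obese, obese sulindac and control, with overlap between neighbours. The mean level of Trib3 over all tumours was 6.18, with 45.8% of probe sets below it, under the array medians of 6.67 to 6.83. Obese minus control was 0.63 ± 0.19 log2 units, a fold of 1.54. Obese sulindac minus obese was -0.52 ± 0.19, a fold of 0.697 with 3 of 6 sulindac tumours below every obese tumour.

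**Figure D1:**
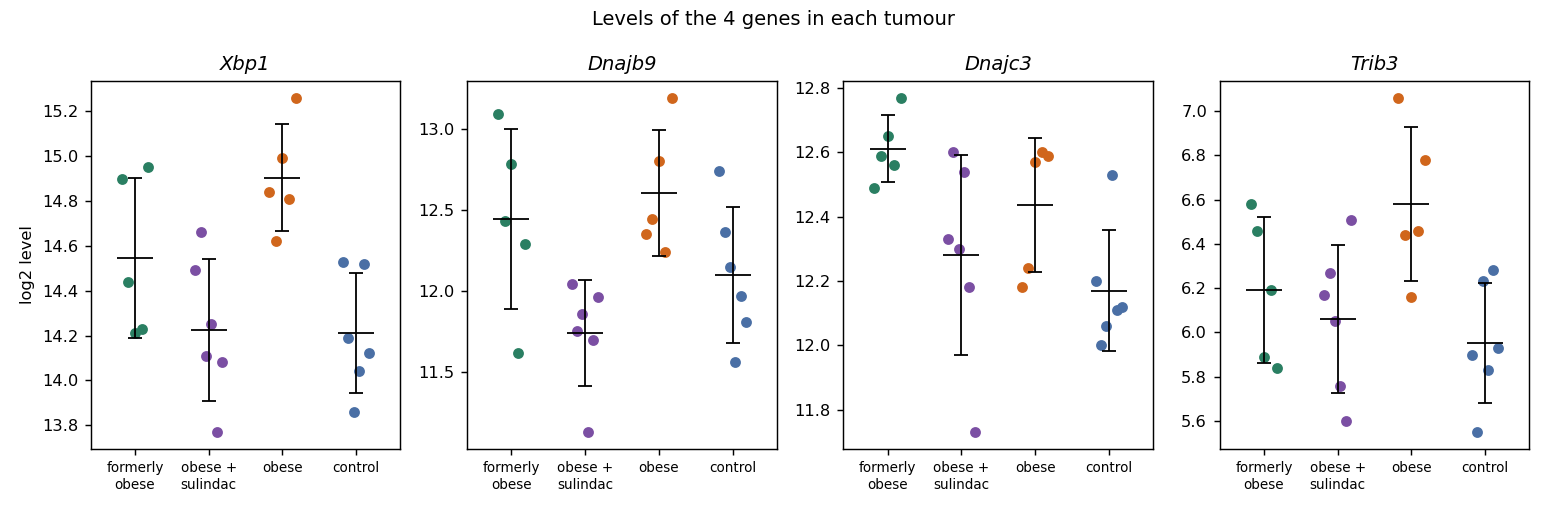
Deposited log2 level (vertical axis, own scale for each gene, not starting at 0) of the 4 genes in each of the 22 tumours, by regimen on the horizontal axis. Points are tumours, the horizontal line is the group mean and bars are 1 SD. Obese tumours (14.62 to 15.26) lie above all control tumours (13.86 to 14.53) for Xbp1, and sulindac tumours (11.13 to 12.04) below all obese tumours (12.24 to 13.19) for Dnajb9.

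The spread between tumours of the same regimen differed among the genes. The pooled SD within groups was 0.298 for Xbp1, 0.424 for Dnajb9, 0.221 for Dnajc3 and 0.320 for Trib3, against a median of 0.348 over all probe sets. Dnajc3 varied less than most: 9.31% of probe sets had a smaller SD, against 67.3% for Dnajb9, 41.2% for Trib3 and 33.9% for Xbp1. The highest tumour of the 22 was that of obese Mouse_113 for both Xbp1 and Dnajb9, obese Mouse_96 for Trib3 and formerly obese Mouse_152 for Dnajc3. Mouse_113 was the second highest for Trib3, and its Dnajc3 level of 12.59 was also in the upper part of the range.

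The formerly obese tumours show where each gene lay after the diet switch. These differences draw on the same obese, sulindac and control arrays as those above, and so on values that may have put the genes forward. In each of the 6 pairs of groups, 0.0% of all 22203 probe sets passed limma's test. The members are among those probe sets, and nothing is read from the members' count. At an unadjusted p under 0.05 the share of all probe sets was 5.69% for formerly obese against obese, 5.54% for formerly obese against control and 6.62% for formerly obese against sulindac. Against obese tumours, formerly obese tumours differed by -0.36 ± 0.19 log2 units in Xbp1 (SE) and by -0.39 ± 0.20 in Trib3. Of the 5 formerly obese tumours, 3 had less Xbp1 than any obese tumour and 2 had less Trib3. Dnajb9 differed by -0.16 ± 0.26 and Dnajc3 by 0.18 ± 0.15. The sign for Dnajb9 turned to 0.04 without the formerly obese tumour of Mouse_150, its lowest.

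Against control tumours, the largest formerly obese difference of the 4 genes was in Dnajc3, at 0.44 ± 0.15 log2 units, a fold of 1.36, with 4 of 5 formerly obese tumours above every control tumour. The other 3 genes lay between the obese and control means: Xbp1 differed from control by 0.34 ± 0.18, Dnajb9 by 0.34 ± 0.25 (between 0.18 and 0.55 with 1 tumour left out) and Trib3 by 0.24 ± 0.19.

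Set against sulindac, the other intervention, the mean of Dnajb9 after the diet switch lay 0.70 ± 0.25 log2 units higher, a fold of 1.63, with 4 of 5 formerly obese tumours above every sulindac tumour. Dnajc3 differed by 0.33 ± 0.15, Xbp1 by 0.32 ± 0.18 and Trib3 by 0.13 ± 0.19.

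**Figure D2:**
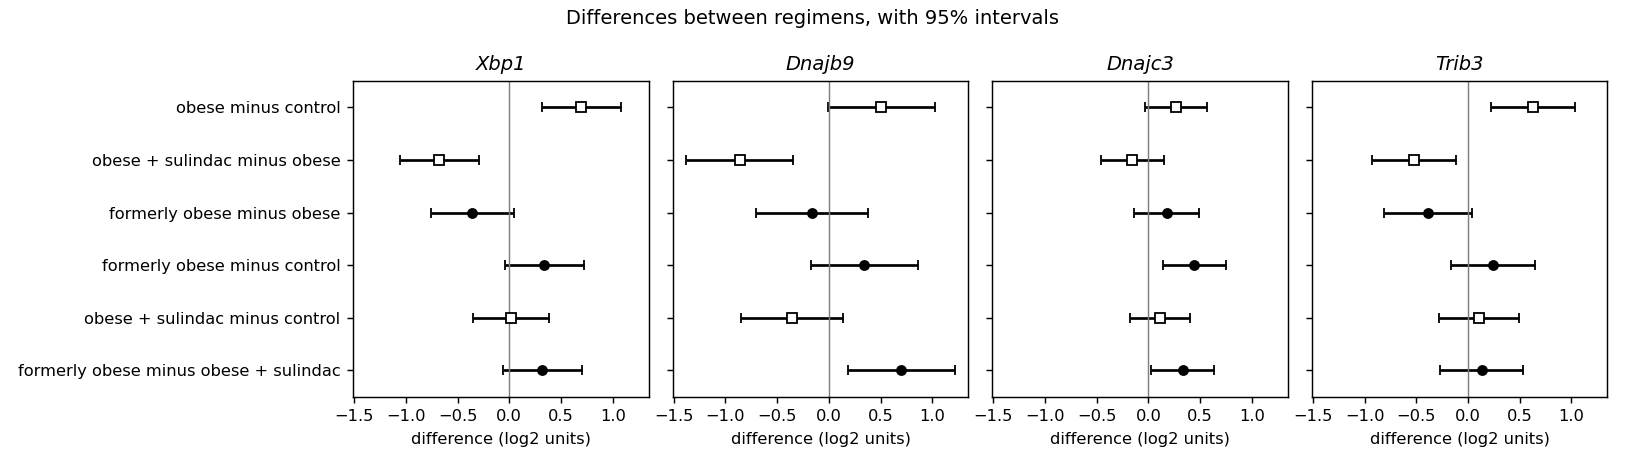
Difference of group means in log2 units (horizontal axis, first group minus second) for each gene and pair of regimens, with 95% intervals of the linear model, drawn as a description. Filled circles are differences of the formerly obese tumours and open squares those among the 3 other groups. The widest differences are those of Dnajb9, at -0.86 for sulindac against obese and 0.70 for formerly obese against sulindac tumours.

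Around the 4 genes, the rest of the pathway was described through lists of genes with a known role, members left out. Beginning with the sensors and transcription factors, 11 of 14 measured genes had a higher mean in obese than in control tumours, with a median difference of 0.09 log2 units, against 49.1% of all probe sets higher and a median of 0.00 over them. None of the 14 passed the limma test, and 0 had an unadjusted p under 0.05, against 4.03% of all probe sets. Atf4 averaged 13.95 ± 0.08 over the obese and 13.66 ± 0.20 over the control tumours (SD, n = 5 and 6). Of the sensor genes, Ern1 differed by 0.01 ± 0.22, Eif2ak3 by 0.23 ± 0.24 and Atf6 by 0.08 ± 0.16, each within 1 SE of 0, and Ern2 by -0.56 ± 0.49, beyond 1 SE. Ddit3, encoding CHOP, differed by 0.30 ± 0.28.

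ER chaperones and folding enzymes mostly lay on the same side as Xbp1, Dnajb9, Dnajc3 and Trib3 in obese against control and sulindac against obese tumours. Obese minus control was above 0 for 14 of 18 measured genes (median 0.13), and obese sulindac minus obese was below 0 for 17 of 18 (median -0.31, against 0.01 over all probe sets, 51.7% of which were higher). None of the 18 passed the test in either contrast, and 3 had an unadjusted p under 0.05 with sulindac, where 6.55% of all probe sets did. Hspa5, encoding BiP, averaged 17.60 ± 0.50 in sulindac and 17.98 ± 0.24 in obese tumours (SD, n = 6 and 5, limma adjusted p = 0.823). Hsp90b1, encoding GRP94, averaged 15.96 ± 0.41 and 16.44 ± 0.33 in sulindac and obese tumours (adjusted p = 0.740). Canx, the lectin chaperone calnexin, differed by -0.31 ± 0.12 and Dnajc1, another J-domain co-chaperone gene, by -0.50 ± 0.19 (adjusted p = 0.700 for both). In formerly obese against obese tumours the list was divided, with 8 of 18 higher and a median of -0.02. Against control tumours 15 of 18 were lower with sulindac (median -0.21), 2 with an unadjusted p under 0.05 (6.63% of all probe sets). Formerly obese tumours were higher than sulindac tumours for 15 of 18 (median 0.30), 5 with an unadjusted p under 0.05 (6.62% of all probe sets). None of the 18 passed the limma test in these contrasts.

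Genes of ER-associated degradation were more evenly divided in their counts. With sulindac 8 of 13 measured genes were lower (median -0.04), and in obese against control tumours 8 of 13 were higher (median 0.04). Herpud1, a stress-induced component of the degradation complex, had a higher mean with sulindac, by 0.36 ± 0.27 log2 units, as had Sel1l, the adaptor of that complex, by 0.26 ± 0.16. Derl3, a derlin of the degradation channel, named here after its value was seen, had the widest difference of the list with sulindac, at -0.50. Selenos, another channel component, differed by -0.22 ± 0.14 with sulindac and by 0.34 ± 0.14 between obese and control tumours, where it was the degradation gene with an unadjusted p under 0.05. Edem1, an XBP1 target that removes misfolded glycoproteins, differed by 0.12 ± 0.29 between obese and control tumours. Among 23 genes of translocation into the endoplasmic reticulum and export from it, 17 were higher in obese than in control tumours (median 0.14) and 17 were lower with sulindac than without (median -0.12). Sec24d, a coat subunit of export vesicles, averaged 10.02 ± 0.30 in obese and 9.27 ± 0.55 in control tumours, a difference of 0.75 ± 0.24, and 10.02 ± 0.39 in formerly obese tumours. No gene of these lists passed the limma test, and few had an unadjusted p under 0.05: 1 of 13 degradation and 1 of 23 translocation and export genes in obese against control tumours (4.03% of all probe sets), and 0 of 13 and 1 of 23 with sulindac (6.55%).

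Targets of ATF4 and CHOP, the branch that induces Trib3, were divided, and none passed the test. In obese against control tumours 1 of 29 had an unadjusted p under 0.05, and with sulindac 4 of 29, against the shares of 4.03% and 6.55% over all probe sets. Obese minus control was above 0 for 17 of 29 measured genes (median 0.07) and obese sulindac minus obese for 13 of 29 (median -0.04). Nupr1, a stress-induced chromatin regulator, had the widest differences of the list in both contrasts: it averaged 13.11 ± 0.99 in sulindac and 14.62 ± 0.48 in obese tumours (-1.51 ± 0.43, limma adjusted p = 0.581), and obese minus control was 1.15 ± 0.43. Tars, a threonyl-tRNA synthetase gene, differed by -0.42 ± 0.13 and Cebpg, a partner of ATF4, by -0.62 ± 0.22 with sulindac (adjusted p = 0.609 and 0.698). Asns, the asparagine synthetase gene, differed by 0.14 ± 0.20 and Chac1, a glutathione-degrading enzyme gene, by 0.40 ± 0.30 between obese and control tumours. Chac1 had a low level, with group means from 4.93 in formerly obese to 5.59 in obese tumours. In formerly obese against obese tumours 17 of 29 were lower (median -0.10), among them Nupr1 by -0.93 ± 0.45, Chac1 by -0.67 ± 0.32 and Tars by -0.34 ± 0.14 (adjusted p = 0.874, 0.874 and 0.866). The other Tribbles genes had wide errors, with obese minus control at 0.13 ± 0.46 for Trib1 and 0.59 ± 0.56 for Trib2.

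Messenger RNAs that IRE1 cleaves, known from studies of mouse cells, split 3 higher and 4 lower in obese against control tumours. Scara3, a scavenger receptor family gene in that list, averaged 6.46 ± 0.50 over the formerly obese and 7.57 ± 0.57 over the obese tumours (SD, n = 5 each, limma adjusted p = 0.866). Sparc and Col6a1, which also belong to the list, are matrix genes of stromal cells as well.

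**Figure D3:**
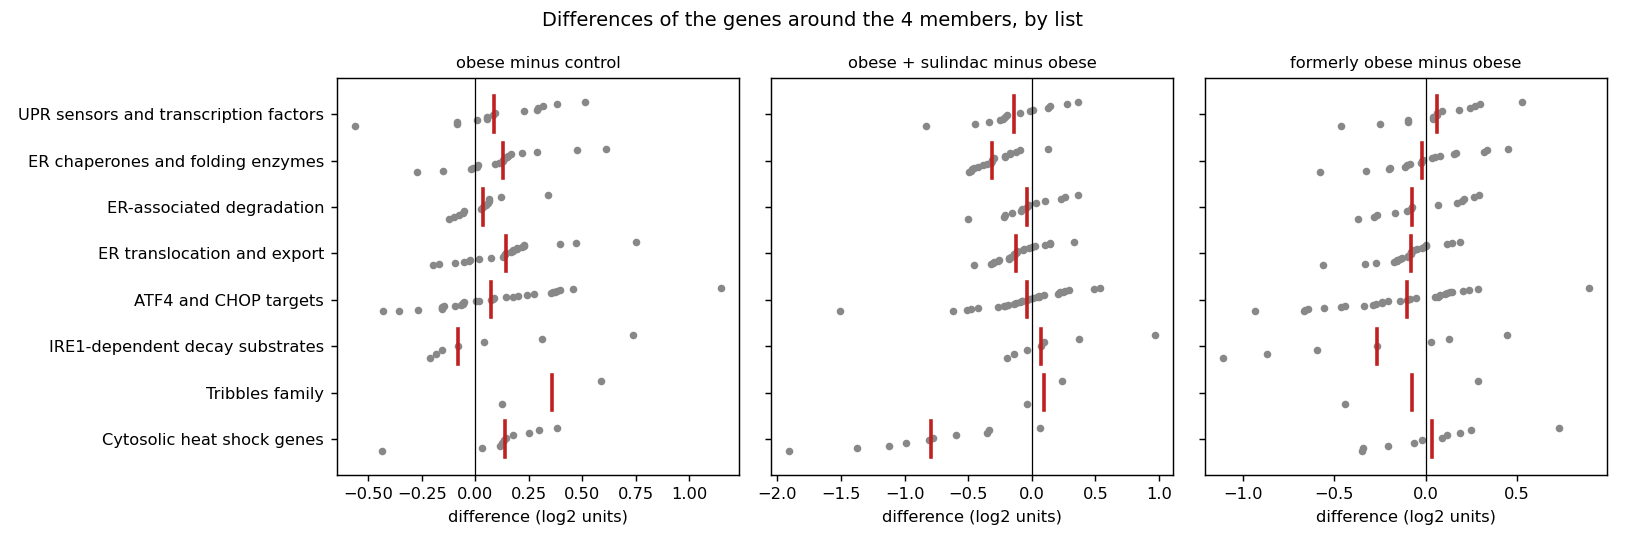
Difference of group means in log2 units (horizontal axis, scale differs between panels) for the measured genes of 8 lists (rows), without the 4 members, in 3 contrasts. Grey points are genes and the red bar is the list's median. Chaperones centre at 0.13 in obese minus control and at -0.31 in obese sulindac minus obese, with 17 of 18 below 0, and cytosolic heat shock genes reach furthest below 0 with sulindac.

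Means of cell type markers also differed between regimens, although 0 of them passed limma's adjusted test, and their part in the levels of the 4 genes was not tested. Plasma cells carry much Xbp1. Of 8 measured plasma cell markers, 6 were higher in obese than in control tumours (median 0.24), 4 of 8 were higher with sulindac than without (median -0.01) and 3 of 8 were higher in formerly obese than in obese tumours (median -0.40). Their mean log2 level spanned 7.85 to 9.85 in formerly obese, 8.12 to 9.64 in obese sulindac, 8.36 to 9.26 in obese and 7.68 to 8.71 in control tumours. Jchain, the joining chain of secreted antibodies, had the list's highest obese minus control difference, at 1.47 ± 0.83, and the lowest was -0.31. Jchain differed by 0.03 ± 0.83 between sulindac and obese tumours. Its mean was 14.52 ± 1.67 over the formerly obese and 15.52 ± 1.23 over the obese tumours. Xbp1 differed by 0.69, -0.68 and -0.36 in the same contrasts. The immunoglobulin constant genes of the list (Igha, Ighm and Igkc) were not matched to a probe set.

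Goblet cell markers had lower mean levels in obese than in control tumours for 11 of 12 genes (median -0.28), higher levels with sulindac for 9 of 12 (median 0.65) and higher levels in formerly obese than in obese tumours for 11 of 12 (median 0.86). Their mean level spanned 10.93 to 12.98 in formerly obese, 10.23 to 12.75 in obese sulindac, 8.64 to 12.76 in obese and 9.79 to 12.98 in control tumours. The median tumour was at 11.52, 11.78, 11.31 and 10.90 in the same order, so the median obese tumour lay above the median control tumour although the gene means ran the other way, and the lowest obese tumour, at 8.64, lay below all others. Muc2, the main gel-forming mucin, averaged 17.31 ± 0.60 in sulindac and 16.66 ± 1.65 in obese tumours.

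Markers of absorptive colonocytes were lower in obese than in control tumours for 8 of 8 genes (median -0.66), higher with sulindac for 7 of 8 (median 0.97) and higher in formerly obese than in obese tumours for 8 of 8 (median 1.76). Their mean level spanned 10.34 to 14.58 in formerly obese, 10.37 to 12.33 in obese sulindac, 8.83 to 11.50 in obese and 9.36 to 12.43 in control tumours.

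Markers of several immune and stromal cell types had higher means in obese than in control tumours, and their differences with sulindac varied by list. T cell markers were higher in obese than in control tumours for 5 of 6 genes and with sulindac for 4 of 6 (medians 0.10 and 0.21). Smooth muscle markers were higher for 6 of 6 in both contrasts (medians 0.07 and 0.41). Neutrophil, macrophage, B cell and fibroblast markers were higher in obese than in control tumours for 7 of 7, 7 of 7, 7 of 7 and 5 of 5 genes (medians 0.94, 0.27, 0.30 and 0.30). In formerly obese against obese tumours 0 of 7, 0 of 7, 3 of 7 and 0 of 5 of them were higher (medians -0.37, -0.05 and -0.62 for the last 3, and differences of -2.14 to -0.49 for the neutrophil genes). With sulindac 2 of 7, 4 of 7, 4 of 7 and 3 of 5 were higher (medians -0.37, 0.10, 0.09 and 0.15). The mean level of the neutrophil genes spanned 6.50 to 8.43 in formerly obese, 6.15 to 10.02 in obese sulindac, 7.32 to 9.65 in obese and 6.10 to 8.52 in control tumours. That of the macrophage genes had medians of 9.83, 10.55, 10.60 and 10.08 in the same order of groups, and reached up to 10.79, 11.06, 10.71 and 10.71. By groups in that order, B cell genes spanned 4.88 to 8.17, 5.18 to 7.24, 5.05 to 6.92 and 4.84 to 5.68, and fibroblast genes 10.62 to 12.77, 11.68 to 12.93, 11.75 to 12.86 and 10.80 to 12.79, so the groups overlapped for each list. Between tumours of the same regimen, Dnajc3 had a positive r with 7 of 7 macrophage markers (median 0.48). T cell, B cell and neutrophil markers gave a positive r for 6 of 6, 6 of 7 and 5 of 7 (medians 0.35, 0.21 and 0.32). Its median over all named genes was -0.01. Xbp1 had a positive r with 6 of 7 macrophage, 6 of 6 T cell, 7 of 7 B cell and 6 of 7 neutrophil markers. Dnajb9 and Trib3 had a negative r with all 7 macrophage markers (medians -0.30 and -0.29). Correlations with these lists were not tested. The mean of 8 epithelial markers, such as Epcam and Cdh1, lay between 14.25 and 15.65 in the 22 tumours.

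Between tumours of the same regimen, no pair of the 4 genes had a correlation past the threshold. For this, each group's mean was subtracted, which removes the differences between regimens, and the residual levels of the 22 tumours were correlated. Of the 6 pairs, the closest was Xbp1 with its target Dnajb9, at Pearson r = 0.412 and Spearman rho = 0.309 (permutation p = 0.0904 and 0.203, adjusted over 6 pairs p = 0.296 and 0.405), with r = 0.359 when the 2 tumours farthest from the Xbp1 median were left out. Xbp1 with Dnajc3 gave r = 0.344 and rho = 0.359 (permutation p = 0.148 and 0.116, adjusted p = 0.296 and 0.405, r = 0.285 without 2 tumours). Dnajc3 with Trib3 gave r = -0.388 and rho = -0.355 (permutation p = 0.107 and 0.138, adjusted p = 0.296 and 0.405, r = -0.339 without 2 tumours), with the same sign in 4 of 4 groups and r between -0.494 and -0.217 with 1 tumour left out. The remaining pairs had r between -0.208 and 0.233, and none of the 6 passed the adjusted threshold of 0.05. Xbp1 had a positive r in 4 of 4 groups with both Dnajb9 and Trib3, and in 3 of 4 with Dnajc3.

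**Figure D4:**
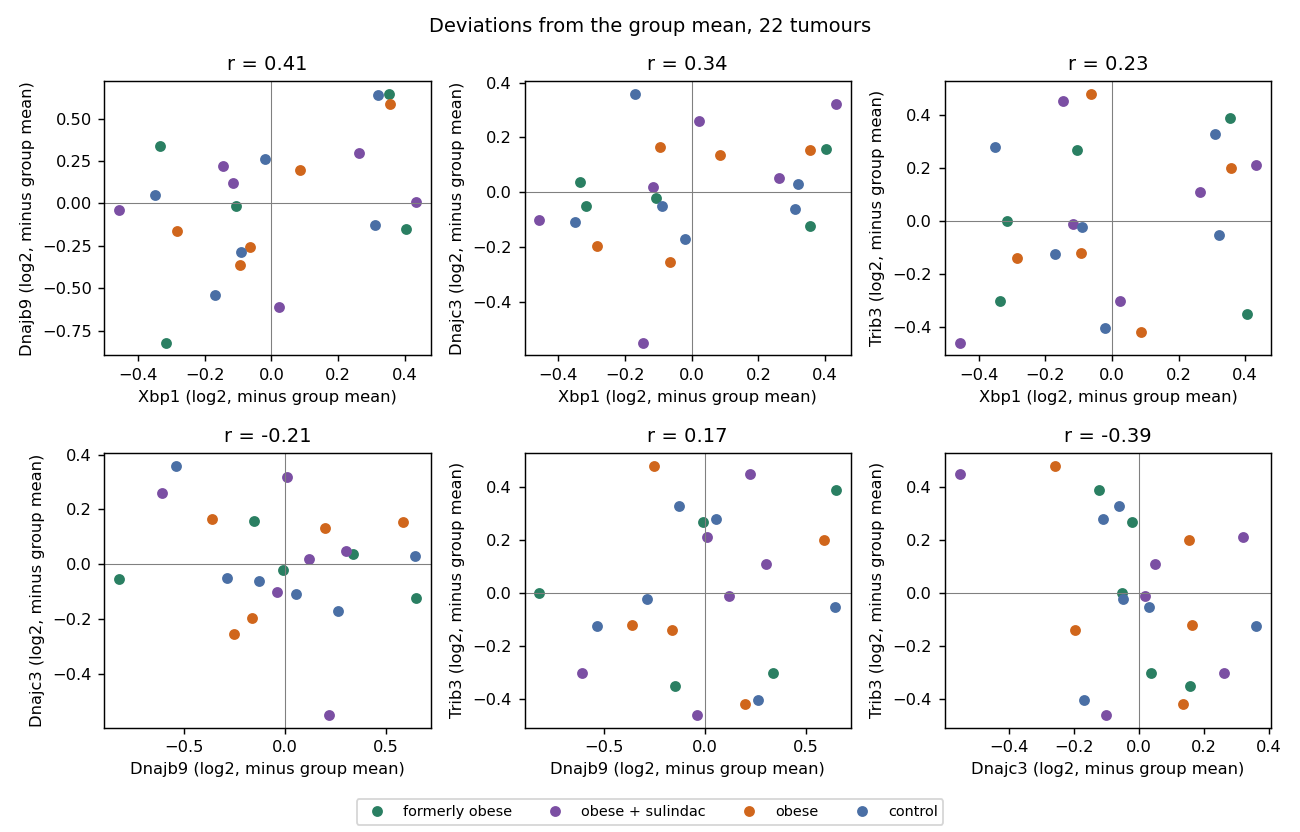
Log2 level minus the group mean of 1 gene against another for the 6 pairs, 22 tumours coloured by regimen. Each point is a tumour and r is Pearson's. The points scatter widely in every panel, with r from -0.388 for Dnajc3 with Trib3 to 0.412 for Xbp1 with Dnajb9.

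Of 24 pairs of a member with a gene list, none passed the adjusted threshold, and the highest r was that of Trib3 with the targets of its own branch. Trib3 with the mean of 29 ATF4 and CHOP targets gave r = 0.585 and rho = 0.614 (permutation p = 0.00696 and 0.00516, adjusted over 24 pairs p = 0.167 and 0.0688), with a positive sign in 4 of 4 groups. Without the 2 tumours farthest from the list's median, r was 0.445 (permutation p = 0.0964). Dnajc3 with the mean of 18 ER chaperones and folding enzymes gave r = 0.547 and rho = 0.607 (permutation p = 0.0276 and 0.00573, adjusted p = 0.331 and 0.0688), also positive in 4 of 4 groups. Here r was 0.703 without the 2 tumours farthest from the median (permutation p = 0.00143, adjusted p = 0.0343), so the call depends on those tumours. Dnajb9 gave r = 0.095 with the chaperones and 0.137 with the ATF4 and CHOP targets.

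Xbp1 gave r = 0.375 and rho = 0.346 with the chaperones (permutation p = 0.105 and 0.131, adjusted p = 0.4999 and 0.506, r = 0.322 without 2 tumours). With plasma cell markers Xbp1 gave r = 0.312 and rho = 0.350 (permutation p = 0.251 and 0.148, adjusted p = 0.556 and 0.506, r = 0.231 without 2 tumours), and with goblet cell markers r = -0.092. Its strongest relation among the 6 lists was with proliferation genes, at r = -0.439 and rho = -0.435 (permutation p = 0.0568 and 0.0567, adjusted p = 0.455 and 0.454), and r was -0.228 without 2 tumours. By group, this r was -0.79 in formerly obese, 0.57 in obese sulindac, -0.64 in obese and -0.56 in control tumours. Dnajb9 gave r = -0.413 with the same genes (permutation p = 0.1025, adjusted p = 0.4999).

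**Figure D5:**
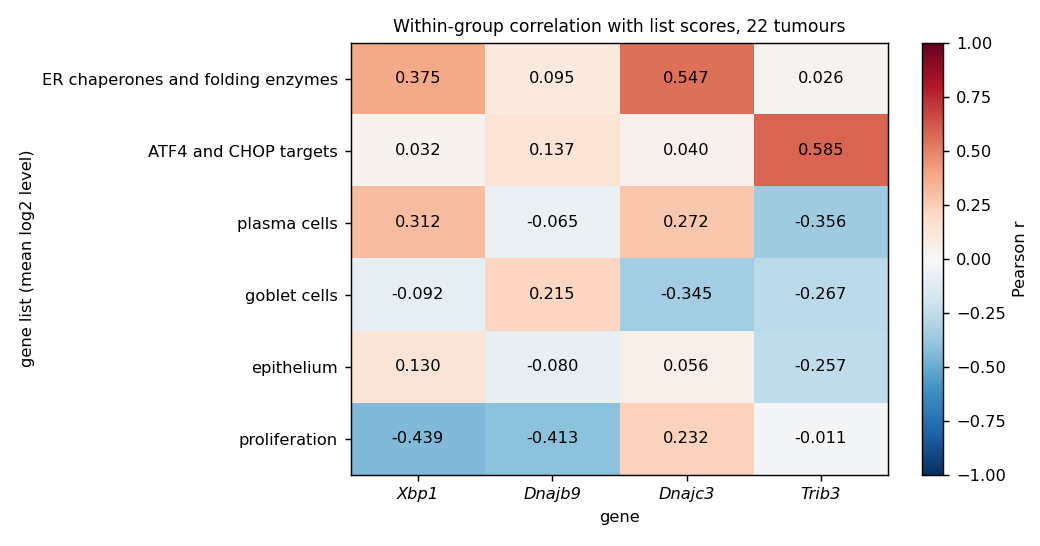
Pearson r over 22 tumours, group means removed, of each gene (columns) with the mean log2 level of 6 gene lists (rows), on a colour scale from -1 to 1. The deepest cells are Trib3 with ATF4 and CHOP targets (0.585) and Dnajc3 with ER chaperones and folding enzymes (0.547), and the same lists give 0.032 for Xbp1 with the targets and 0.026 for Trib3 with the chaperones.

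Values of r with single pathway genes are given as a description, over the same 22 arrays and with group means removed. Dnajb9 had r = 0.67 with Ddit3, 0.56 with Eif2ak3, 0.56 with Chac1 and 0.54 with Atf4, and 0.07 with Hspa5. Its r was over 0.5 with 3 of 14 sensors and transcription factors, 3 of 29 ATF4 and CHOP targets and 1 of 18 chaperones (Dnajb11, 0.53), against 2.33% of all named genes. Dnajc3 had r = 0.58 with Hspa5, 0.52 with Sdf2l1 and 0.52 with Edem1, and -0.70 with Eif2ak3, the kinase that p58IPK inhibits. Its r was over 0.5 with 3 of 18 chaperones, 4 of 23 translocation and export genes, 0 of 14 sensors and transcription factors and 2 of 29 ATF4 and CHOP targets (Ppp1r15a at 0.59 and Wars at 0.55, with Tars at 0.50), against 2.83% of all named genes. Dnajb11, Ppp1r15a, Wars and Tars, and Mbtps1 below, are given here after their values were seen. Whether these profiles differ between the genes was not tested. Trib3 had r = 0.60 with Atf4 and 0.59 with Ern1, but 0.19 with Ddit3, 0.24 with Chac1 and -0.23 with Asns. Its r was positive with 22 of 29 ATF4 and CHOP targets (median 0.24). Xbp1 had r = 0.63 with Edem1, 0.61 with Trib1 and 0.48 with Herpud1, and 0.71 with Nupr1. Its r was -0.65 with Mbtps1, a gene of the sensor and transcription factor list. Over 0.5 lay 3 of 14 sensors and transcription factors and 1 of 29 ATF4 and CHOP targets for Trib3 (1.87% of all named genes), and 0 of 14 and 1 of 29 for Xbp1 (2.03%). The median r over all named genes lay between -0.02 and 0.01 for each of the 4.

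The genes most alike to each member over the 22 tumours, by Pearson r with group means removed, came mostly from outside the pathway. For Xbp1 they were Rcan1 (r = 0.756), Col11a2, Atp6v0e, Ubap1 and Snrk (0.733). For Dnajb9 they were Thbs2 (r = 0.761), Tsc22d1, Decr2, Ndel1 and Igbp1b (0.731). Col11a2 and Igbp1b had low mean levels, 4.63 and 4.86, against array medians of 6.67 to 6.83. For Dnajc3 they were Tmprss4 (r = 0.860), Parp8, Ctps, Nfkb2 and Sec61b (0.736), the last a subunit of the translocation channel. For Trib3 they were Rgl3 (r = 0.791), Eva1b, Fam91a1, Bcl2l2 and Rbpms (0.713). Ranked among 19504 other genes by likeness to Xbp1, Dnajb9 came at 1037, Dnajc3 at 1876 and Trib3 at 3707.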

How the data were processed

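Total RNA of 22 tumours was hybridised to Clariom S arrays, per the labels. The authors deposited levels read here as log2, with 2 decimals, for 22203 probe sets. Transcriptome Analysis Console 4.0 appears in the submitters' processing notes. The sources used here do not give how probes were summarized and normalized, or the logarithm's base. The range of values, 3.34 to 19.49, led to base 2. Array medians lay between 6.67 and 6.83. The number of arrays limits the precision.

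A linear model with 4 group means was fitted to all 22 arrays and all probe sets in R 4.3.3 with limma 3.58.1 (lmFit, eBayes), with Benjamini-Hochberg adjusted p under 0.05 as the threshold. Correlations used residuals from group means and 100000 permutations within groups. A gene with several probe sets took that with the highest mean. Of 221 places in 20 lists, 202 had a probe set. Named genes were the members, 19 fixed pathway and marker genes, and per list and main contrast up to 3 with the smallest p, with the 5 genes most alike to each member. Members and lists were chosen with earlier results of these data known, so member differences carry no test. Each title gives its own mouse number, or X for 1 sulindac tumour, so nothing pairs them, and p-values measure the spread between mice. The code was tested on simulated data.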

Additional observations from a re-analysis of the deposited data

Results flagged for a closer look

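Dnajb9 in the sulindac-treated tumour of Mouse_129 was at 11.13, far below the other 5 of its group, which spanned 11.70 to 12.04. Its gap to the nearest of them was 0.626 of the group's range, against Dixon's critical value of 0.625. In all, 16 sets of values (4 genes in 4 groups) were examined this way, and chance marks about 1 set in 20. Without this tumour, sulindac minus obese for Dnajb9 was -0.74 in place of -0.86 log2 units.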

How the results depend on the processing

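Leaving out each tumour in turn, fitting only the groups compared, quantile or median scaling, a filter on dim probe sets, a variance trend and array weights kept the direction of each member difference and 0 called probe sets, with these exceptions. Dnajb9 in formerly obese minus obese ranged from -0.324 to 0.044 over the left-out tumours, and Xbp1 in sulindac minus control, at 0.02, from -0.07 to 0.11 and down to -0.02 under other settings. Other small differences kept their direction but varied in size with 1 tumour left out. Dnajc3 ranged from 0.11 to 0.22 in formerly obese minus obese and from -0.22 to -0.05 in sulindac minus obese. Trib3 ranged from 0.14 to 0.33 in formerly obese minus control and from 0.04 to 0.22 in formerly obese minus sulindac. The count of called probe sets for sulindac minus obese ranged from 0 to 1, with 1 without obese Mouse_96, and for formerly obese minus control from 0 to 1, with 1 without formerly obese Mouse_152; the cause was not tested. An unadjusted exact permutation test was also run on the formerly obese differences. An arm of each contrast may have chosen the genes, so its p-values are left out and nothing is read from it. All the differences it covered are listed here, in log2 units and in the order Xbp1, Dnajb9, Dnajc3 and Trib3. They were -0.36, -0.16, 0.18 and -0.39 in formerly obese minus obese. In formerly obese minus control they were 0.34, 0.34, 0.44 and 0.24. In formerly obese minus sulindac they were 0.32, 0.70, 0.33 and 0.13. The filter on dim probe sets gave no Trib3 value, since its mean lay below the median of all probe sets.

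With 1 tumour left out, r between members kept its sign, within 0.102 to 0.377 for Xbp1 with Trib3, -0.300 to -0.082 for Dnajb9 with Dnajc3, 0.05 to 0.259 for Dnajb9 with Trib3, 0.327 to 0.509 for Xbp1 with Dnajb9, 0.237 to 0.452 for Xbp1 with Dnajc3 and -0.494 to -0.217 for Dnajc3 with Trib3. Among correlations with lists, weak ones changed sign. Without 2 tumours r was 0.097 for Xbp1 with goblet cell markers, -0.042 for Dnajb9 and -0.197 for Trib3 with chaperones, and 0.02 for Trib3 with goblet cell markers. Spearman's rho was -0.046 for Dnajc3 with epithelial markers and -0.041 for Trib3 with chaperones, and median centring gave 0.087 for Trib3 with proliferation genes. No paired analysis was possible because the groups share no replicate numbers. Signal over background was not used here.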

Other observations

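Heat shock genes of the cytosol and mitochondria, which handle unfolded proteins outside the endoplasmic reticulum, had lower means with sulindac. Of 10 measured genes, 9 had a lower mean in obese sulindac than in obese tumours (median -0.79 log2 units, against 0.01 over all probe sets), 4 with an unadjusted p under 0.05 (6.55% of all probe sets) and 0 past limma's adjusted threshold. Hspd1, the mitochondrial chaperonin HSP60, averaged 14.51 ± 0.47 in sulindac and 15.29 ± 0.24 in obese tumours (SD, n = 6 and 5, limma adjusted p = 0.567). Hsph1, a cytosolic nucleotide exchange factor, averaged 11.74 ± 1.57 and 13.65 ± 0.60 in sulindac and obese tumours (adjusted p = 0.652), and Chordc1, a co-chaperone gene of HSP90, 10.96 ± 0.52 and 11.77 ± 0.43 (adjusted p = 0.651). The mean level of the list spanned 10.91 to 12.42 in sulindac and 11.96 to 12.35 in obese tumours, so the groups overlapped. In formerly obese against obese tumours 5 of 10 genes were higher and 5 lower, with Dnajb1 at 0.73 ± 0.27 (adjusted p = 0.866).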
